A study of Oryza sativa Japonica Group with 4 samples.

Results

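The cyclin genes and the KRP genes for cyclin-dependent kinase inhibitors were examined in roots of rice (Oryza sativa Japonica, variety TNG67) after a short supply of glutamate. A gene was taken as a member when a symbol or synonym in the RefSeq gene table, with or without the prefix Os, read as CYC with 1 letter and a number, as CDK with a letter of A to G and an optional number, or as KRP with a number. The gene table held 34 such genes, of which 27 had a probe set assigned to them alone on the array, out of 17905 genes measured in this way. These 27 were 3 A-type, 4 B-type, 9 D-type and 7 other cyclins and 4 KRP genes. The remaining 7, CDKC1, CYCA3-1, CYCB1-5, CYCD2-1, KRP2, KRP3 and 1 of the 2 genes that carry the name CYCT1-1, had no such probe set and were not analysed here. No cyclin-dependent kinase was therefore among the measured members. Another 13 genes, 11 kinases and 2 cyclins, are written in the gene table with a hyphen before the kinase number or a semicolon and were not members for that reason alone. They are described beside the members as the kinase partners.

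Seedlings of all 4 samples had grown in hydroponic solution without nitrogen until they were 17 days old. The 2 +Glu samples then spent 30 min in solution with glutamate at 2.5 mM. The study calls the 2 −N samples untreated, and its account of the arrays does not clearly say whether they were moved to fresh solution. They were kept in solution without nitrogen. Every −N sample was thus nitrogen starved, and the contrast is that of glutamate added to starved roots and not that of starved and fed roots. Total root RNA was labelled and put on Affymetrix GeneChip arrays of the rice genome, 1 array for each of 2 biological replicates per group. The measurement is the linear intensity deposited for each probe set, a group of short probes against 1 transcript or, for some probe sets, several. In such bulk RNA, fewer dividing cells and less of a transcript in each cell cannot be told apart.

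Cyclins are the regulatory partners that switch cyclin-dependent kinases (CDKs) on. In plants, D-type cyclins act with CDKA at the entry into the cell cycle and are known for responding to sugars and hormones, A-type cyclins act from DNA replication to mitosis, and B-type cyclins act with CDKA and CDKB around mitosis. KRP proteins bind and inhibit these complexes, and in roots dividing cells are concentrated in the meristem behind the tip and in young lateral roots. Other cyclins and CDKs serve transcription, RNA processing or nutrient responses and not cell division itself.

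Transcript levels of the cyclin and KRP genes after 30 min of glutamate differed little between the groups. None of the 27 members passed an unadjusted p of 0.05 in limma's moderated test, 0 higher and 0 lower in +Glu, where 3.86% of all 17905 genes were called higher and 0.380% lower. None passed an adjusted p of 0.05 (Benjamini-Hochberg over all probe sets), and the same held for the whole array, with 0% of genes called. At least 2-fold with an unadjusted p of 0.05, the kind of threshold given in the study's methods, was reached by 0 members, against 1.75% of all genes. A Student's test that takes each gene's spread from its own arrays called 1 member higher (CYCD4-1) and 3 lower (CYCD5-1, CYCP3-1 and KRP6) at an unadjusted p of 0.05, where it called 2.77% of all genes higher and 1.45% lower, and 0 members after adjustment. The fold change of +Glu over −N lay between 0.590 and 1.28 over the members, with 11 above 1 and 16 below. Of all 17905 genes, 9875 were above 1 and 8030 below. The median log2 fold change of the members was −0.038, and that of all genes was 0.026.

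The intervals give the sizes of difference that these 4 arrays leave possible. For 21 of the 27 members (77.8%) the 95% interval of limma's log2 fold change stayed within a 2-fold difference in either direction. The same was true of 70.3% of all genes. For the other 6 members, CYCD2-2, CYCD4-2, CYCD5-3, CYCF2-2, CYCP2-1 and CYCP4-1, the interval reached past a 2-fold difference on 1 side or both. The median size of the log2 fold change, regardless of direction, was 0.114 in the members and 0.144 in all genes.

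**Figure D1:**
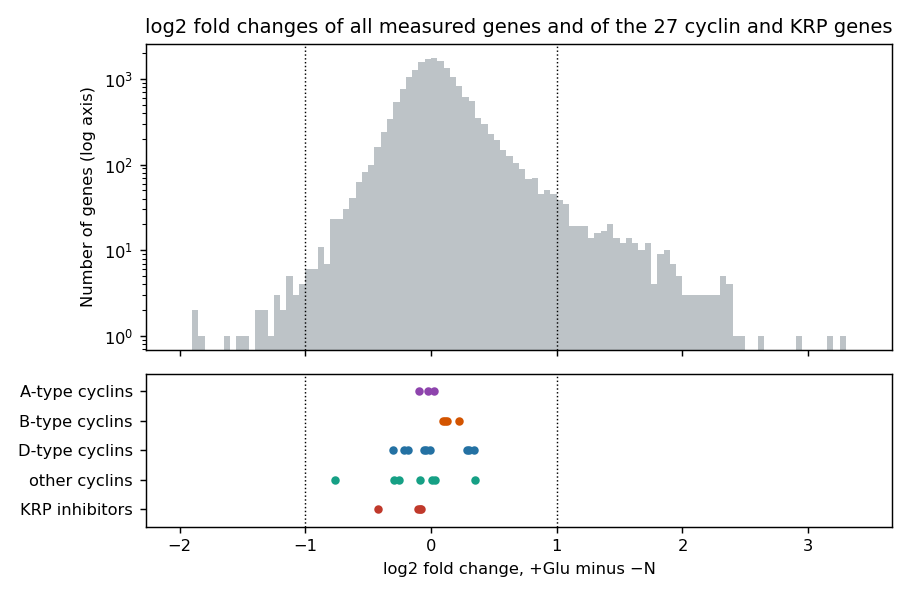
Upper panel: number of genes (log axis) by log2 fold change, +Glu minus −N, for all 17905 genes; lower panel: the 27 cyclin and KRP genes by class, 1 point per gene, on the same horizontal axis. Dotted lines mark 2-fold differences, and all 27 members lie between them, from −0.761 to 0.353.

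Separation of the groups was also read directly from the arrays. In 3 members, CYCB2-1, CYCD3-2 and CYCD4-1, each +Glu array was higher than each −N array, an order that 14.9% of all genes showed. The opposite order was found in 7 members, CYCD5-1, CYCD5-2, CYCP3-1, CYCP4-1, CYCT1-1, KRP4 and KRP6, and in 10.1% of all genes. In the other 17 the groups overlapped.

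Among the D-type cyclins, the class that links outside signals to division, 2 genes stood on either side of the −N roots with very close replicates. CYCD4-1 (LOC4347313) had intensities of 262.2 and 267.9 in +Glu roots and 207.2 and 210.9 in −N roots. Both +Glu arrays were higher and the replicates of each group lay close together, a 1.27-fold difference with a log2 fold change of 0.34 (SE 0.209, 95% interval −0.18 to 0.86) and an unadjusted p of 0.156 in limma's test. CYCD5-1 (LOC4333455) had 185.9 and 188.2 in +Glu roots and 230.8 and 231.0 in −N roots. Here both +Glu arrays were lower, 0.810-fold of −N, with a log2 fold change of −0.30 (95% interval −0.83 to 0.22) and an unadjusted p of 0.199. limma's test moves the spread of each gene toward that of all probe sets, so pairs as close as these gain little from it. Neither gene was called in limma's test, and each kept its direction whichever array was left out. A Student's test on each gene's own spread called both, but neither after adjustment. Its unadjusted p was 0.0034 for CYCD4-1 and 0.000849 for CYCD5-1.

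Of the other 7 D-type cyclins, CYCD3-2 (LOC4346394) was above −N on both +Glu arrays, with 93.6 and 85.4 in +Glu roots and 82.2 and 64.1 in −N roots, a 1.23-fold difference (unadjusted p = 0.257, limma). CYCD5-2 (LOC4352668) was below −N on both, with 374.9 and 403.9 in +Glu roots and 419.6 and 465.4 in −N roots, or 0.881-fold (unadjusted p = 0.43, limma), and its second probe set gave a log2 fold change of −0.21 beside −0.18. The 3 measured genes of the CYCD5 type thus did not share a direction, since CYCD5-3 (LOC4331985), with 173.4 and 206.8 in +Glu roots and 119.5 and 200.8 in −N roots, was 1.22-fold of −N and overlapped.

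For CYCD5-3 the size of the difference rested on the −N replicates, which were 1.68-fold apart. Its log2 fold change was 0.29 over all arrays, −0.08 without −N replicate 1 and 0.67 without −N replicate 2. CYCD3-1 (LOC4340499) had 140.0 and 138.6 in +Glu roots and 116.6 and 167.9 in −N roots, so that both +Glu values lay between the −N ones and the fold was 0.996. CYCD4-2 (LOC4345844) had 35.1 and 53.1 in +Glu roots and 38.5 and 65.1 in −N roots (0.863-fold). CYCD6-1 (LOC4343569), whose relative in Arabidopsis acts in the divisions that form the root ground tissue, had 35.0 and 54.7 in +Glu roots and 36.1 and 55.9 in −N roots (0.974-fold). In both genes replicate 2 was above replicate 1 in each group by more than the groups differed. CYCD2-2 (LOC4343936) was dim, with 8.87 and 10.5 in +Glu roots and 6.76 and 14.9 in −N roots, all below the median of their array.

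**Figure D2:**
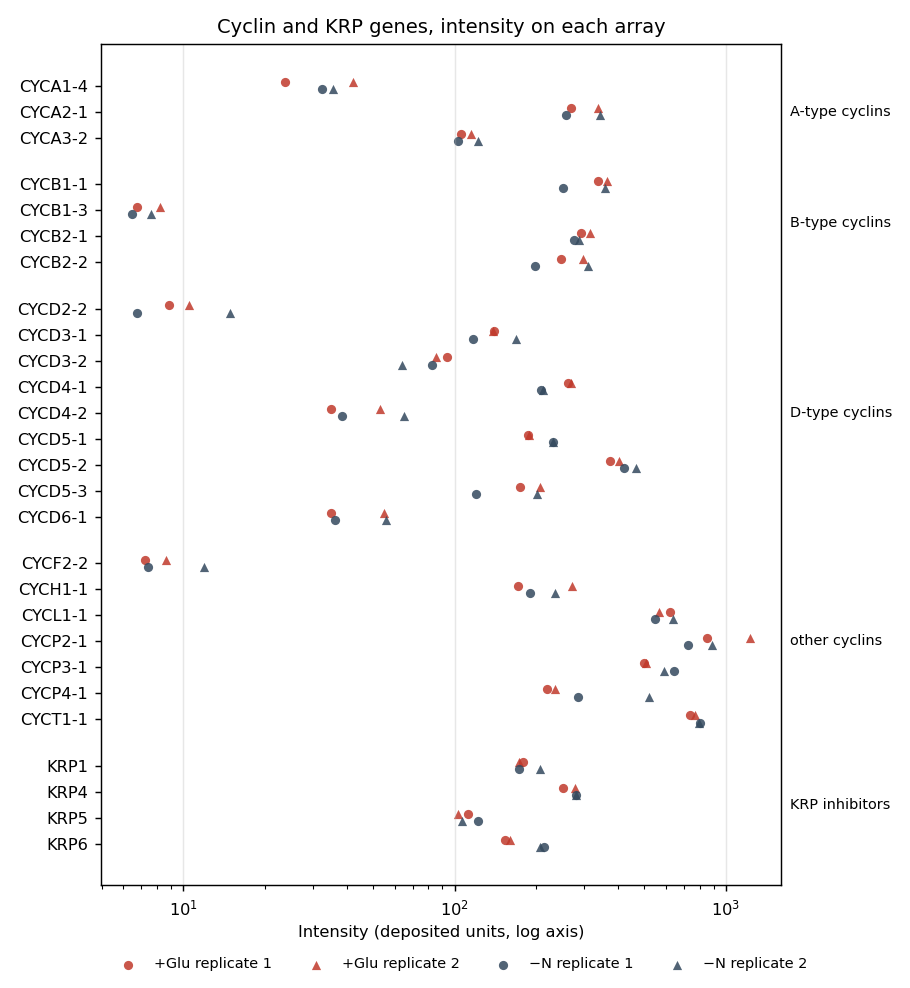
Intensity in deposited units on a log axis for each of the 27 cyclin and KRP genes, 1 point per array, +Glu in red above −N in blue for each gene, circles for replicate 1 and triangles for replicate 2. Values are to be read within a gene, since probe sets differ in sensitivity; CYCD4-1 and CYCD5-1 have close replicates and separate groups, and CYCP4-1 has 1 −N array far to the right at 521.5.

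The B-type cyclins, which drive entry into mitosis, had 4 of 4 fold changes above 1 and 0 of 4 called. Of all 17905 genes, 9875 had fold changes above 1. CYCB1-1 (LOC4327547) had 338.4 and 363.4 in +Glu roots and 250.7 and 358.6 in −N roots. The difference of 1.17-fold (log2 0.23, 95% interval −0.43 to 0.88) came from −N replicate 1, since −N replicate 2 was within the range of the +Glu arrays, and without −N replicate 1 the log2 fold change was −0.03. CYCB2-1 (LOC4336670) had 291.6 and 315.8 in +Glu roots and 274.5 and 286.6 in −N roots, which did not overlap, at 1.08-fold. CYCB2-2 (LOC4342121) had 247.5 and 297.7 in +Glu roots and 198.1 and 310.6 in −N roots, which overlapped, at 1.09-fold, and its other probe set gave a log2 fold change of 0.33. CYCB1-3 (LOC4326914) was dim on every array, with 6.74 and 8.22 in +Glu roots and 6.45 and 7.56 in −N roots, below the median of each array, at 1.07-fold.

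The shared direction of the B-type genes was lost when either of 2 arrays was left out. All 4 had their lowest value on −N replicate 1, as did 51.4% of all genes. Their median log2 fold change was 0.122 over all arrays and −0.027 without −N replicate 1, when 3 of 4 were negative. It was 0.026 without +Glu replicate 2, with 2 of 4 negative, and 0.330 without −N replicate 2.

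The A-type cyclins differed least of these classes, with a median size of the log2 fold change of 0.021 and 0 of 3 called. CYCA2-1 (LOC4352280) had 269.2 and 338.2 in +Glu roots and 257.0 and 344.0 in −N roots, so that the −N arrays enclosed the +Glu ones and the fold was 1.01 (95% interval of log2 −0.63 to 0.68). CYCA3-2 (LOC4352642) had 105.8 and 114.6 in +Glu roots and 102.4 and 122.0 in −N roots, again with −N on both sides, at 0.985-fold. In CYCA1-4 (LOC4338177) the +Glu arrays enclosed the −N ones, with 23.7 and 42.3 in +Glu roots and 32.4 and 35.5 in −N roots, at 0.935-fold. Its +Glu replicates were 1.79-fold apart, and its direction turned when +Glu replicate 1 was left out (log2 0.32 in place of −0.10).

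The KRP genes encode inhibitors that hold CDK complexes inactive. Fold changes below 1 were found in 8030 of all 17905 genes and in all 4 measured KRP genes. Those of the KRP genes ran from 0.747 to 0.944, with 0 called. KRP6 (LOC4347280) was the one with a clear gap, at 153.1 and 160.4 in +Glu roots and 213.8 and 206.0 in −N roots. Both +Glu arrays were lower, with a log2 fold change of −0.42 (SE 0.210, 95% interval −0.95 to 0.10) and an unadjusted p of 0.0956 in limma's test (adjusted p of 1 by Benjamini-Hochberg). Leaving out 1 array at a time moved this value only between −0.46 and −0.39, and a second, dim probe set of the gene gave −0.27. The second probe set of KRP4, also dim, went the other way, at 0.05. KRP4 (LOC4348872) had 250.5 and 276.7 in +Glu roots and 279.6 and 279.4 in −N roots, where +Glu replicate 2 was only just under the −N arrays and the groups did not overlap, at 0.942-fold.

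KRP1 (LOC4330816), with 178.6 and 173.0 in +Glu roots and 173.3 and 205.7 in −N roots, and KRP5 (LOC4331554), with 112.1 and 103.2 in +Glu roots and 121.8 and 106.5 in −N roots, overlapped between the groups. Their folds were 0.931 and 0.944. The median log2 fold change of the 4 KRP genes was −0.095 and stayed below 0 under every alternative, from −0.181 with quantile normalization to −0.065 with median centring. All 4 genes were negative except for 1 gene without −N replicate 1 and 1 gene without −N replicate 2.

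The cyclins outside the A, B and D types held the widest range. CYCP4-1 (LOC4349405), a P-type cyclin related to the yeast phosphate-signalling cyclin PHO80, had 219.6 and 234.8 in +Glu roots and 284.0 and 521.5 in −N roots. Both +Glu arrays were lower and close together, and the −N arrays were 1.84-fold apart. The fold was 0.590, with a log2 fold change of −0.76 (SE 0.337, 95% interval −1.60 to 0.08), an unadjusted p of 0.0677 in limma's test, the lowest of the 27 members, and an adjusted p of 1. The direction did not depend on any 1 array, but the size did. The log2 fold change was −1.20 without −N replicate 1 (unadjusted p = 0.0023, adjusted p = 0.155, limma), a fit that called 3.76% of all genes lower, and −0.32 without −N replicate 2. With all arrays it was −0.85 after quantile normalization (unadjusted p = 0.0175, limma) and −0.73 after median centring (unadjusted p = 0.0352, limma), both with an adjusted p of 1, and 1.13% and 0.508% of all genes were called lower in these fits.

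The other P-type cyclins went different ways. CYCP3-1 (LOC4338711) had 500.7 and 505.8 in +Glu roots and 645.5 and 591.6 in −N roots, lower on both +Glu arrays at 0.814-fold (log2 −0.30, 95% interval −0.83 to 0.23, unadjusted p = 0.216, limma). CYCP2-1 (LOC4336603) had 853.2 and 1228 in +Glu roots and 723.2 and 888.2 in −N roots, the highest fold of the members at 1.28 (log2 0.35, 95% interval −0.34 to 1.04, unadjusted p = 0.252, limma). Its groups overlapped, and +Glu replicate 2 alone was above all other arrays.

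Cyclins that act with the transcription and RNA-processing kinases had folds close to 1. CYCT1-1 (LOC4352229), of the class that partners the CDKC kinases, which release RNA polymerase II for elongation, had 736.6 and 765.9 in +Glu roots and 803.6 and 795.9 in −N roots, a small difference of 0.939-fold without overlap. CYCH1-1 (LOC4334040), the partner of CDKD in the CDK-activating and transcription-initiation complex, had 171.6 and 271.3 in +Glu roots and 190.2 and 234.8 in −N roots, at 1.02-fold with the +Glu arrays outside the −N ones. CYCL1-1 (LOC4325450), of the class tied to splicing, had 622.0 and 565.0 in +Glu roots and 545.6 and 637.7 in −N roots, at 1.00-fold. Both of these overlapped, with 95% intervals of log2 from −0.72 to 0.78 and from −0.55 to 0.56. CYCF2-2 (LOC4329915), which is not of these classes, was dim on all 4 arrays, with 7.20 and 8.59 in +Glu roots and 7.39 and 11.9 in −N roots. It was at 0.838-fold with overlap (95% interval of log2 −1.01 to 0.50).

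**Figure D3:**
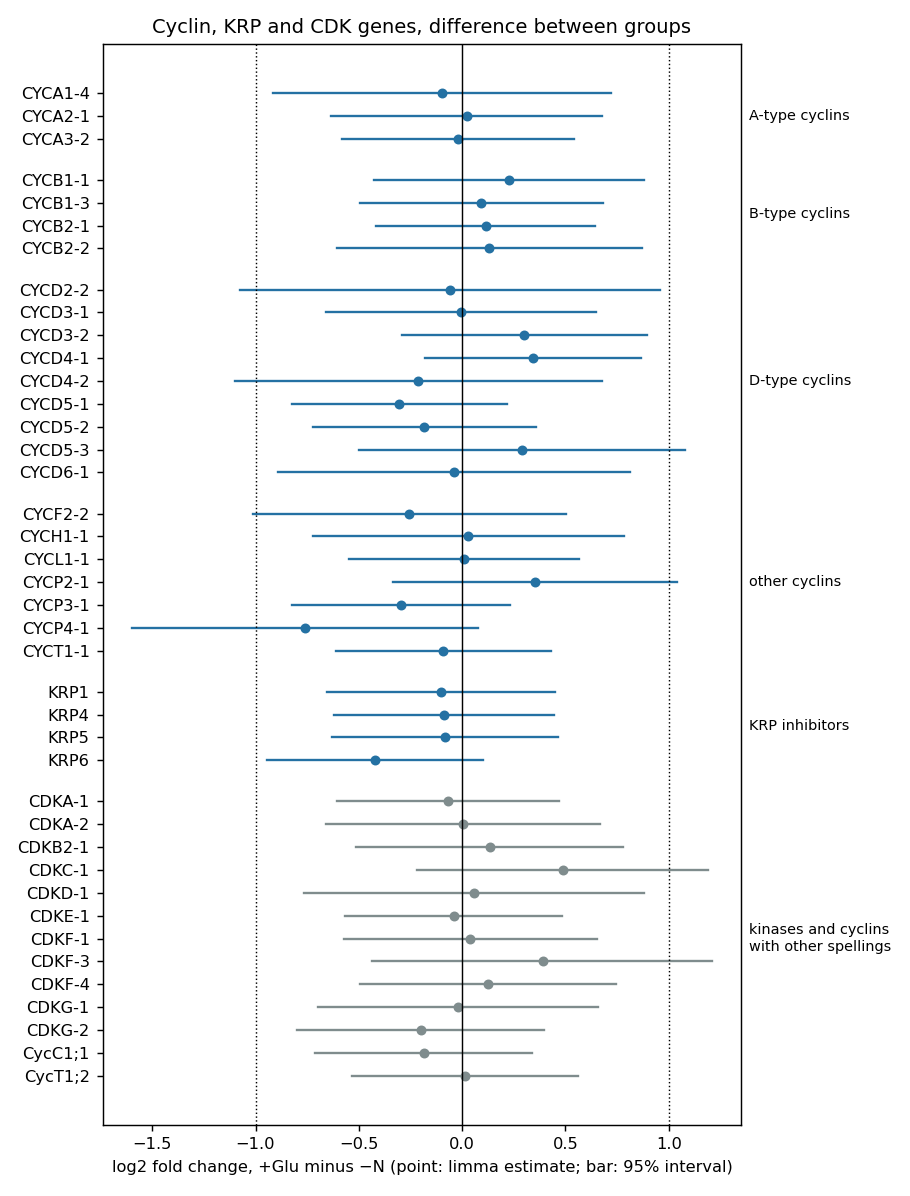
log2 fold change, +Glu minus −N, of the 27 cyclin and KRP genes (blue) and of the 13 kinases and cyclins whose names use another separator (grey), with points for limma's estimate and bars for its 95% interval; dotted lines mark 2-fold differences. Every bar crosses 0, and that of CYCP4-1 reaches the furthest, from −1.60 to 0.08.

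The kinase partners gave a similar picture by the brightest probe set of each gene. Of the 13 genes with another separator, 0 were called at an unadjusted p of 0.05 in limma's test, the median log2 fold change was 0.012 and the folds ran from 0.871 (CDKG-2) to 1.40 (CDKC-1). CDKA-1 (LOC4331415), a copy of the core cell cycle kinase of plants, had 768.6 and 690.5 in +Glu roots and 742.0 and 787.3 in −N roots, at 0.953-fold with overlap. CDKB2-1 (LOC4346016), of the plant-specific mitotic kinases, had 428.3 and 491.6 in +Glu roots and 355.1 and 492.6 in −N roots, at 1.10-fold with overlap.

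The kinase furthest from −N was a transcription kinase. CDKC-1 (LOC4338674) had 172.4 and 220.3 in +Glu roots and 115.7 and 167.3 in −N roots, above −N on both arrays at 1.40-fold (log2 0.49, 95% interval −0.22 to 1.19, unadjusted p = 0.141, limma). Without −N replicate 2 its log2 fold change was 0.75 (unadjusted p = 0.0442, adjusted p = 0.793, limma), in a fit that called 8.67% of all genes higher and in which the median of all genes was 0.203. The T-type cyclins, the partners of this class, were at 0.939-fold for CYCT1-1 and 1.01-fold for CycT1;2 (LOC4329229). CDKF-3 (LOC4334774) was at 1.31-fold, with 288.4 and 441.5 in +Glu roots and 222.0 and 334.7 in −N roots, and its replicates were 1.53-fold apart in +Glu and 1.51-fold apart in −N. CycC1;1 (LOC9272663), whose class sits with CDKE in the Mediator complex, was below −N on both +Glu arrays at 0.879-fold, with 774.7 and 823.1 in +Glu roots and 919.0 and 897.2 in −N roots, while CDKE-1 (LOC4349519) itself was at 0.973-fold.

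Several kinase genes had probe sets that gave different values. The brightest probe set of CDKA-2 (LOC4328135), used here, had a log2 fold change of 0.01, with 248.6 and 314.0 in +Glu roots and 239.2 and 323.9 in −N roots. Its dimmest had 49.9 and 34.6 in +Glu roots and 21.9 and 12.5 in −N roots, a log2 fold change of 1.33 with an unadjusted p of 0.0112 in limma's test. CDKG-1 (LOC4329899) had a log2 fold change of −0.02 by its brightest probe set and 0.92 (unadjusted p = 0.0375, limma) by the other, at 42.7 and 38.0 in +Glu roots and 15.8 and 28.8 in −N roots. CDKG-2 (LOC4336224), the low end of these genes at −0.20 by its brightest probe set, had 0.34 and 0.27 by its other probe sets, and CDKE-1 had −0.04 beside 0.16. CDKF-4 (LOC4330434) had 0.12 by its brightest probe set and 0.43 by the other. With the mean of a gene's probe sets, 3 of the 13 genes changed sign and CDKG-2 was at 0.14. The median of the 13 was then 0.134 with 11 above 0, where that of all genes was 0.022. By the brightest probe sets it was 0.012 with 8 above 0. The probe sets named in this comparison were singled out after their values were seen. Those used for CDKA-1 and CDKA-2 end in s_at and x_at, kinds that can detect several transcripts. Other endings, such as the a_at of the probe sets used for CDKG-2 and CYCD5-1, were not screened. Which transcripts each of them detects was not tested.

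The rest of the cell cycle machinery was read from a list by name of 42 measured genes for DNA replication, the RB pathway, mitosis and histones. In limma's test 0 of the 42 were called in either direction at an unadjusted p of 0.05, against the same 3.86% and 0.380% of all genes. The median log2 fold change was 0.054. Of the 42 genes, 4 were above −N on both +Glu arrays and 5 were below, against 14.9% and 10.1% of all genes. At one end stood EL2 (LOC4331332), an elicitor-responsive CDK inhibitor, with 1595 and 1679 in +Glu roots and 1423 and 719.0 in −N roots. Both +Glu arrays were higher at 1.62-fold (log2 0.69, 95% interval −0.21 to 1.60, unadjusted p = 0.107, limma), and −N replicate 2 was at 0.505-fold of −N replicate 1. At the other end stood ORC2 (LOC4331860), a subunit of the origin recognition complex, with 206.6 and 195.8 in +Glu roots and 235.5 and 249.8 in −N roots, lower on both at 0.829-fold (unadjusted p = 0.252, limma).

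Within that list, genes of DNA replication (30 measured) had a median log2 fold change of 0.080. PCNA (LOC4331062), the sliding clamp of replication, had 1108 and 1158 in +Glu roots and 1094 and 1332 in −N roots, at 0.938-fold with overlap. The 5 histone H2B genes, whose transcripts are made in S phase, had a median of −0.083 and fold changes from 0.835 to 1.06. Of these 5, 3 were below −N on both +Glu arrays, an order that 10.1% of all genes showed. Near-identical H2B copies could share probes, so these 5 may not be independent measurements.

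The spread between replicates was larger in −N than in +Glu, in the members as in all genes. The replicates were at least 1.5-fold apart in 4 members in +Glu (14.8%) and in 7 members in −N (25.9%), and in 11.3% and 31.2% of all genes in the same groups. The median ratio of replicate 2 over replicate 1 was 1.08 in +Glu and 1.19 in −N for the members, and 1.15 in +Glu and 1.24 in −N for all genes. None of the members had replicates 4-fold apart, the widest being CYCD2-2 in −N at 2.21-fold.

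The MCM genes, which encode the replicative helicase, showed that spread together and were picked out after their values were seen. For MCM2 to MCM7, 6 of 6 genes had their lowest value on −N replicate 1 and their highest on −N replicate 2, against 51.4% and 44.3% of all genes. MCM2 (LOC4350526) had 219.9 and 242.4 in +Glu roots and 140.0 and 246.1 in −N roots. MCM5 (LOC4331016) had 56.6 and 74.9 in +Glu roots and 41.9 and 93.4 in −N roots. The median ratio of replicate 2 over replicate 1 in these 6 was 1.21 in +Glu and 1.92 in −N. Their median log2 fold change was 0.183 with 6 of 6 above 0, but −0.326 with 0 of 6 above 0 without −N replicate 1, and 0.660 without −N replicate 2. Of the 27 members, 12 (44.4%) were lowest on −N replicate 1 and 13 (48.1%) highest on −N replicate 2, close to the shares of all genes.

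**Figure D4:**
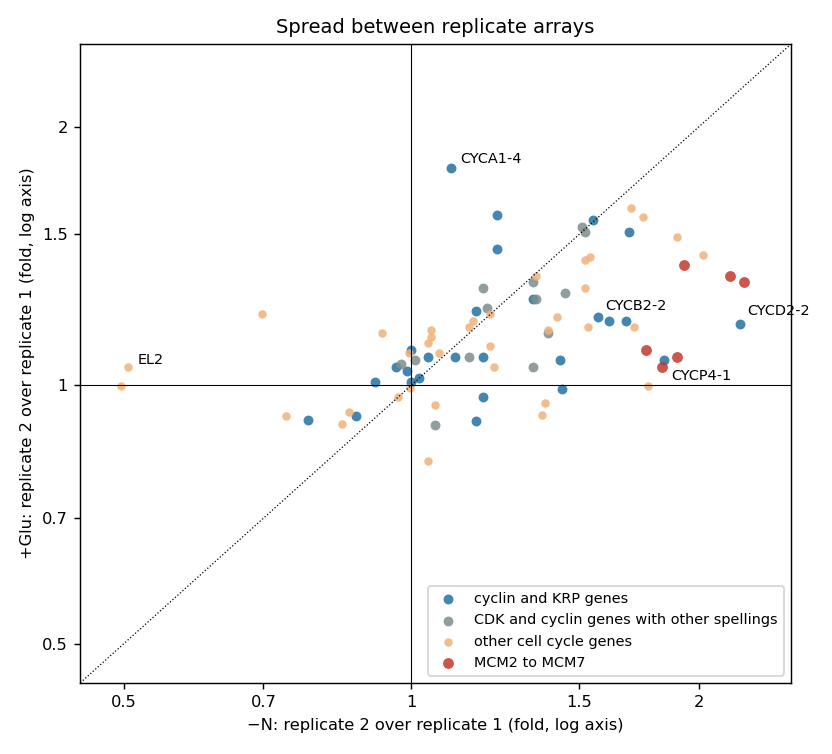
Ratio of replicate 2 over replicate 1 (fold, log axes) in +Glu on the vertical and in −N on the horizontal axis, 1 point per gene, for the 27 cyclin and KRP genes, the 13 kinases and cyclins with other spellings and the 42 other cell cycle genes, with MCM2 to MCM7 in red. The dotted line marks equal ratios in both groups, and the MCM genes lie to the right of it, at 1.76 to 2.23 in −N.

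The samples were checked against their label as roots. Lsi1, the root silicon channel, had 7831 and 8863 in +Glu roots and 7085 and 9275 in −N roots, and 8 root genes were measured in all. Transcripts known from green shoots gave signal as well, and all of them but RBCS1 were above the array medians (19.3 to 23.9) on every array. Of the 7 measured, CAB2R, a chlorophyll-binding protein, was the brightest, with 10641 and 9106 in +Glu roots and 8748 and 10778 in −N roots. RBCS1 was the dimmest, with 4.88 and 4.91 in +Glu roots and 4.57 and 4.01 in −N roots. Rubisco activase (rca) had 927.9 and 875.4 in +Glu roots and 381.3 and 1275 in −N roots. Of all genes, 51.4% were lowest on −N replicate 1 and 44.3% highest on −N replicate 2. Of the 7 green shoot genes, 6 were lowest on −N replicate 1 and 6 highest on −N replicate 2. Of the 8 root genes, 4 were lowest on −N replicate 1 and 6 highest on −N replicate 2. Across their 8 genes the root list had a median ratio of replicate 2 over replicate 1 of 1.22 in +Glu and 2.27 in −N. The part of these differences in the values of the cyclin and KRP genes was not tested.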

How the data were processed

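Root RNA was measured on 4 Affymetrix arrays, 2 +Glu and 2 −N. The intensities deposited by the authors are linear (3.15 to 21379), 1 value for each probe set of an array. GCOS and RMA appear in the submitters' processing notes, where their versions and order are not stated. The array medians were 19.3 and 23.9 in +Glu and 20.1 and 23.9 in −N, and detection calls were not used here, so whether a dim probe set exceeds background is not known. Arrays have no read depth, and their number limits the precision.

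The log2 of each deposited intensity was taken without a pseudocount or filter. After 123 controls were left out, the remaining 57258 of 57381 probe sets were compared (+Glu minus −N, two-sided, no block) with limma 3.58.1 (lmFit and eBayes) in R 4.3.3, with Benjamini-Hochberg adjustment over all probe sets and a threshold of 0.05. The methods give a 2-fold cutoff and a p threshold but name no test. The p-values rest on the spread between 2 replicates a group. limma pools that spread over both groups and moves it toward that of all probe sets. The fit was checked on simulated data with known changes. The simulated noise was independent between arrays, so the check did not cover deviations that arrays share.

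The array annotation names 1 gene for 22436 probe sets, several for 95 and none for 34727. Where a gene had several single-gene probe sets, that with the highest mean log2 stood for it (17905 genes, all found in the RefSeq table of assembly ASM3414082v1). Symbols there are placeholders, so names are synonyms, which 2915 genes have. Histone-like names of homeobox and histidyl-tRNA synthetase genes were left out. As the build behind the array annotation is not stated, no coordinates are given. The members and gene lists were chosen with earlier results of these data known. All 27 members are described, and of the other cell cycle genes the rule named those called, or the ends of the list where none was. Further genes were named after their values were seen. Tables and figures used Python 3.11.15, pandas 2.3.3 and matplotlib 3.10.9.

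As alternatives, the fit was repeated with a block for the replicate number, without each array in turn, with quantile normalization and with median centring. It was also repeated with 2 filters on dim probe sets (mean log2 of at least 5, or above the median). Further alternatives left out probe sets ending in s_at or x_at, or used the mean of a gene's probe sets. The last used 1 probe set per gene, a trend in eBayes, or an unmoderated test.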

Additional observations from a re-analysis of the deposited data

How the results depend on the processing

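The count of cyclin and KRP genes at an adjusted p under 0.05 was 0 under every alternative. At an unadjusted p under 0.05, 0 were higher and 0 lower in +Glu over all arrays. With an unmoderated Student's test, which takes each gene's spread from its own arrays, 1 was higher (CYCD4-1) and 3 were lower (CYCD5-1, CYCP3-1 and KRP6). Quantile normalization gave 1 lower and median centring 1 lower, CYCP4-1 both times. Leaving out 1 array at a time gave 0 to 1 lower and 0 to 1 at least 2-fold apart, again CYCP4-1, without −N replicate 1, where 3.76% of all genes were called lower. With the replicate number as a block, 2 were lower, CYCP4-1 (limma's unadjusted p of 0.0219) and KRP6 (0.0394), where 1.89% of all genes were called lower and 8.24% higher, and the median log2 fold change remained −0.038. In that fit CDKC-1 and CDKF-3, of the 13 genes with another separator, were higher (limma's unadjusted p of 0.0259 and 0.0484). The labels number the biological replicates of each group and do not say whether same-numbered arrays were paired. Same-numbered arrays deviated from their group means together (r = 0.546 over 57258 probe sets and 0.391 over the 27 members). The median log2 fold change ran from −0.164 without −N replicate 1 to 0.121 without −N replicate 2, while that of all genes ran from −0.128 to 0.203. The sign changed under at least 1 alternative in 16 of the 27 genes and under none in 11. The filters on dim probe sets left 24 of the 27. With 2 arrays a group, leaving 1 out assumes that the lone array varies like those of the other group. For the 3 genes below the median of every array, signal over background is not known.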
